A study of Homo sapiens with 6 samples.

Results

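The genes described here encode the MHC class I molecules and the machinery that loads them with peptide, 9 genes in all: the heavy chain genes HLA-B, HLA-C, HLA-E, HLA-F and HLA-G, the light chain gene B2M, the peptide transporter genes TAP1 and TAP2, and TAPBP, which encodes tapasin. Every probe set whose platform annotation names 1 of these genes was taken, which gave 48 of the 49293 probe sets analysed. A single one of the 48, 11759581_x_at, names several genes (HLA-B and HLA-C). Messenger RNA was measured on 1-colour arrays in U87 cells, an established human glioma cell line. The tested samples overexpressed the microRNA miR-151a (3 samples) and the controls a negative control microRNA, miR-NC (3 samples). The labels name no drug. They also leave out the arm of miR-151a and the time of overexpression. No label states that the samples of a group were grown separately, so a p-value refers to variation among these arrays alone, and that variation may be technical.

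MHC class I molecules show peptides from inside the cell to CD8 T cells and to natural killer cells. A polymorphic or conserved heavy chain folds with beta-2 microglobulin in the endoplasmic reticulum, TAP1 and TAP2 pump peptides from the cytosol into that compartment, and tapasin holds the empty heavy chain beside the transporter until a peptide is bound. Transcription of these genes responds to interferon through interferon regulatory factors, which bind the interferon-stimulated response element (ISRE), and to inflammatory signals through NF-kB, while the CCAAT box is a site for NF-Y. HLA-B and HLA-C are classical molecules, HLA-E and HLA-F are conserved and more widely known as ligands of natural killer cell receptors, and HLA-G is best known from the placenta. Low class I on the tumour cell surface is a known route of immune escape in glioma.

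The promoters of HLA-B, HLA-C and HLA-F, for which some probe sets rose, are shown beside those of B2M and TAP1, for which none passed, so that the sites named above can be compared. Windows of 300 bases (250 before to 50 after the RefSeq gene start, GRCh38.p14) were found for 8 of the 9 genes (not HLA-E), 11 windows in all, with 3 for HLA-G and 2 for TAP1. In the sequences, written 5′ to 3′ along the gene, capitals mark matches to the ISRE letters (GAAA, NN, GAAA, where N is any base) or to the NF-kB consensus, each searched on both strands; neighbouring matches can overlap. B2M lies on chromosome 15 and the other genes on chromosome 6.
HLA-B (chr6:31357130-31357429, minus strand): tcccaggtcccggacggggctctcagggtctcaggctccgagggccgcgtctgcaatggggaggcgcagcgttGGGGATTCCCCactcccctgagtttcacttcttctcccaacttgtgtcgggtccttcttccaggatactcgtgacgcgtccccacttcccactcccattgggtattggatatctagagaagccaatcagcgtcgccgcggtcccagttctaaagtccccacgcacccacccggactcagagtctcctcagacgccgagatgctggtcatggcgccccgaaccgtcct
HLA-C (chr6:31272043-31272342, minus strand): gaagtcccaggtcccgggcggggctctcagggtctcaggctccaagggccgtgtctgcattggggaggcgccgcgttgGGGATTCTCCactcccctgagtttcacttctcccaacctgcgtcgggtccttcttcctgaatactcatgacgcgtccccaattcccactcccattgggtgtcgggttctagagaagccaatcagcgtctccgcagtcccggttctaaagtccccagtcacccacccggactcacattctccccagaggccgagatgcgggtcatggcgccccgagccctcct
HLA-F (chr6:29723184-29723483, plus strand): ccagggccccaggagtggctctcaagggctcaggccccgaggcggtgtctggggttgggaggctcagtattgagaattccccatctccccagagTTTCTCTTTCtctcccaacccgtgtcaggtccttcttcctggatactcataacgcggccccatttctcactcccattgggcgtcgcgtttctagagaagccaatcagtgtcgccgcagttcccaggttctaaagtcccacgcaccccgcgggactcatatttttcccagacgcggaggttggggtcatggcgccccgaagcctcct
B2M (chr15:44711267-44711566, plus strand): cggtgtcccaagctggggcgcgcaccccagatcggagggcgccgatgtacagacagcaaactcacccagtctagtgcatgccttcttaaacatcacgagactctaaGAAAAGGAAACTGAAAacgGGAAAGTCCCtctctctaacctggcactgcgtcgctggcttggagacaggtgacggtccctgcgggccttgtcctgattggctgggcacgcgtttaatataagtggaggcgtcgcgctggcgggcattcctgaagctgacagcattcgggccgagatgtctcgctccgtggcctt
TAP1 (chr6:32853655-32853954, minus strand): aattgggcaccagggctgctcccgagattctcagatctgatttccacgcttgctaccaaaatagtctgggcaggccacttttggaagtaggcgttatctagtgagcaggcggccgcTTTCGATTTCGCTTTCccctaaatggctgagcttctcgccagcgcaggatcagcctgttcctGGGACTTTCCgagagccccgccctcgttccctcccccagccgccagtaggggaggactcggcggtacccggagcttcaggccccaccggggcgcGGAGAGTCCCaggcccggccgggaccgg

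An NF-kB match began 177 bases before the start of HLA-B, with a second one overlapping it 176 bases before, and 172 bases before that of HLA-C. HLA-F had no NF-kB match and 1 ISRE match, on the opposite strand, 156 bases before its start. A CCAAT match on the gene's own strand lay 56 bases before the start in HLA-B, HLA-C and 1 HLA-G window, and 57 bases before it in HLA-F. That HLA-G window also held an NF-kB match 177 bases before the start. Its letters (GGGAGGCCCC) differed from those of the HLA-B match at the same distance (GGGGATTCCC). B2M held 2 overlapping ISRE matches, 144 and 138 bases before the start, and 1 NF-kB match 125 bases before it. The TAP1 window shown held 2 overlapping ISRE matches (134 and 128 bases before the start) and 2 NF-kB matches, and it shares 13 bases with the window of PSMB9, an immunoproteasome gene on the opposite strand. Of the windows not shown, TAP2 held 1 ISRE match, and TAPBP 2 overlapping ISRE matches and 1 NF-kB match, while the other 2 HLA-G windows and the other TAP1 window held none of the 3 motifs. Among 35116 promoter windows, 3.57% held the ISRE letters, 11.3% the NF-kB consensus and 34.6% CCAAT in either orientation. A match describes the letters of the reference genome and shows no binding in these cells. Sites that depart from the searched letters were not counted, so a window without a match may still hold such an element.

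**Figure D1:**
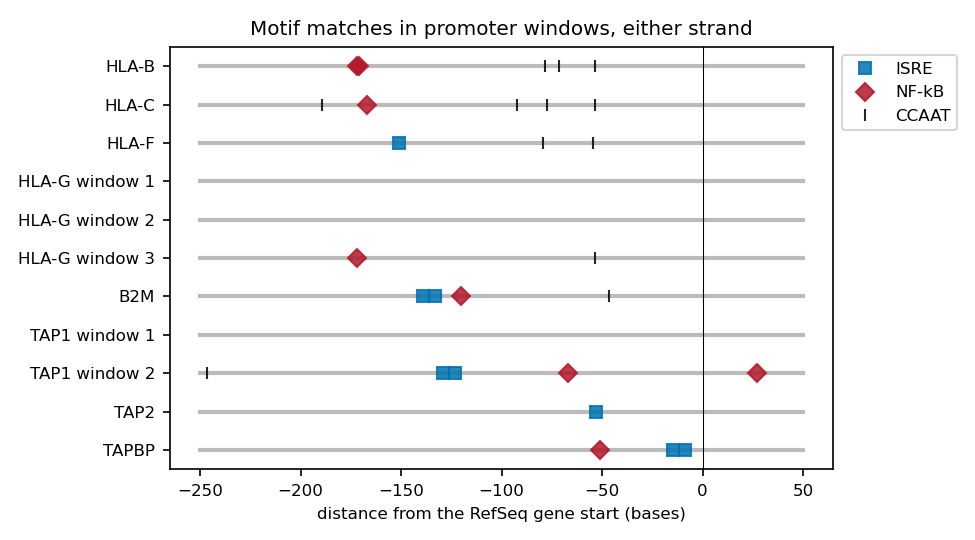
Matches to 3 motifs in the 11 promoter windows (grey lines), by distance in bases from the RefSeq gene start; squares are ISRE, diamonds NF-kB and ticks CCAAT, on either strand. HLA-B, HLA-C and 1 HLA-G window carry an NF-kB match 177, 172 and 177 bases before the start, and these 3 windows and that of HLA-F carry CCAAT 56 or 57 bases before it.

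The arrays had median intensities from 57.1 to 58.6, lower quartiles from 14.9 to 15.6 and upper quartiles from 222 to 229.6, a similar scale on which a change common to most RNAs is lost. In bulk RNA, fewer cells carrying a transcript and less of it per cell cannot be told apart. Pearson correlations over probe sets were at least 0.998 within groups and at least 0.9956 between groups. The mesenchymal marker VIM had an intensity of 19170 ± 297 with miR-151a and 19019 ± 484 with miR-NC (SD, n = 3 each), whereas the astrocyte marker GFAP was at 61.4 ± 1.36 and 63.2 ± 0.592, near the array median, and S100B and SOX2 were below it. Of 9 measured immune cell markers, 7 lay below the median level, among them the pan-leukocyte gene PTPRC at 7.53 ± 0.803 with miR-151a and 8.65 ± 0.649 with miR-NC, below every array's lower quartile. For the beta-actin control probe sets, the 3 prime signal over the 5 prime signal, as a log2 ratio, ran from 0.27 to 0.30 with miR-151a and from 0.37 to 0.43 with miR-NC, and that of GAPDH from 0.04 to 0.05 and from 0.03 to 0.05; their part in the results was not tested.

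With miR-151a the heavy chain genes HLA-B, HLA-C, HLA-E and HLA-F rose by about 1.2- to 1.3-fold at their passing probe sets, while B2M, TAP1, TAP2, TAPBP and HLA-G had no probe set past the threshold. Of the 48 probe sets, 11 rose and 0 fell at a Benjamini-Hochberg adjusted p under 0.05 in limma, fitted over all probe sets on log2(intensity + 1). By the same rule 14.1% of all probe sets passed, 6.81% as higher and 7.27% as lower. All 11 belonged to heavy chain genes: 2 of 3 for HLA-B, 1 of 3 for HLA-C, 4 of 6 for HLA-E and 4 of 10 for HLA-F. The median log2 fold change over the 48 was 0.10, over the 29 heavy chain probe sets 0.17 and over the 19 of the other genes 0.08, against -0.01 over all probe sets tested. Groups did not overlap for 16 that were higher with miR-151a and for 2 that were lower, against 15.3% and 18.6% of all probe sets (33.8% in either direction). Probe sets of 1 gene share sequence, so they are not separate measurements.

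**Figure D2:**
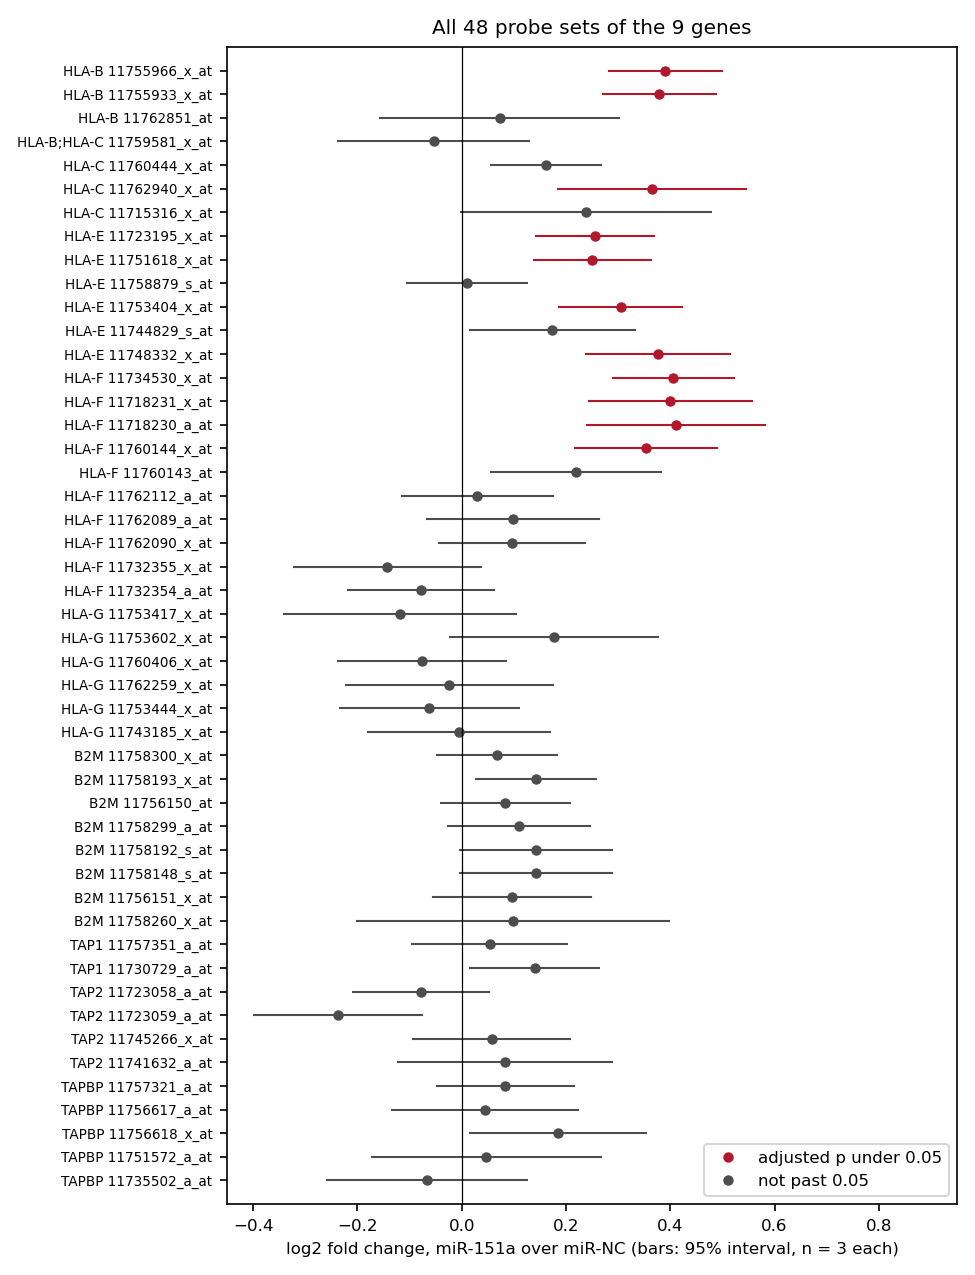
Log2 fold change (miR-151a over miR-NC, n = 3 each) of each of the 48 probe sets, with 95% intervals of the fit; red marks an adjusted p under 0.05. The 11 red probe sets lie between 0.25 and 0.41 and belong to HLA-B, HLA-C, HLA-E and HLA-F.

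The counts were also read by signal level. At or above the median level of all probe sets, 10 of 13 heavy chain probe sets rose and all 13 had a positive log2 fold change, with a median of 0.36. Below it, 1 of 16 rose, and the median was 0.01; of all probe sets below the median level 5.59% passed, 3.25% as higher and 2.34% as lower, so this count was near the array's own share. For the other genes, 0 of 16 at or above the median level and 0 of 3 below it passed in limma. At an unadjusted p under 0.05 in limma, 3 of these 19 were higher and 1 was lower. That cutoff took 13850 of all 49293 probe sets in either direction. Among all probe sets at or above the median level, 22.6% passed, 10.4% as higher and 12.2% as lower. By suffix, which Affymetrix uses to grade specificity, 10 of the 27 probe sets ending in _x_at rose. Such probe sets contain probes that can match other sequences, and class I heavy chain genes resemble each other, so the values of a single heavy chain gene are uncertain. Of the others, 1 of 14 ending in _a_at (variants of 1 gene), 0 of 4 in _s_at (shared by related transcripts) and 0 of 3 in _at (unique) rose. Of all _x_at probe sets on the array, 13.4% passed, 6.73% as higher and 6.70% as lower. The shares were 14.5% (8.11% higher, 6.42% lower) for _a_at, 19.1% (7.66% higher, 11.4% lower) for _s_at and 11.0% (3.9% higher, 7.08% lower) for _at, so counts of 0 or 1 among so few members do not set these suffixes apart from the array.

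**Figure D3:**
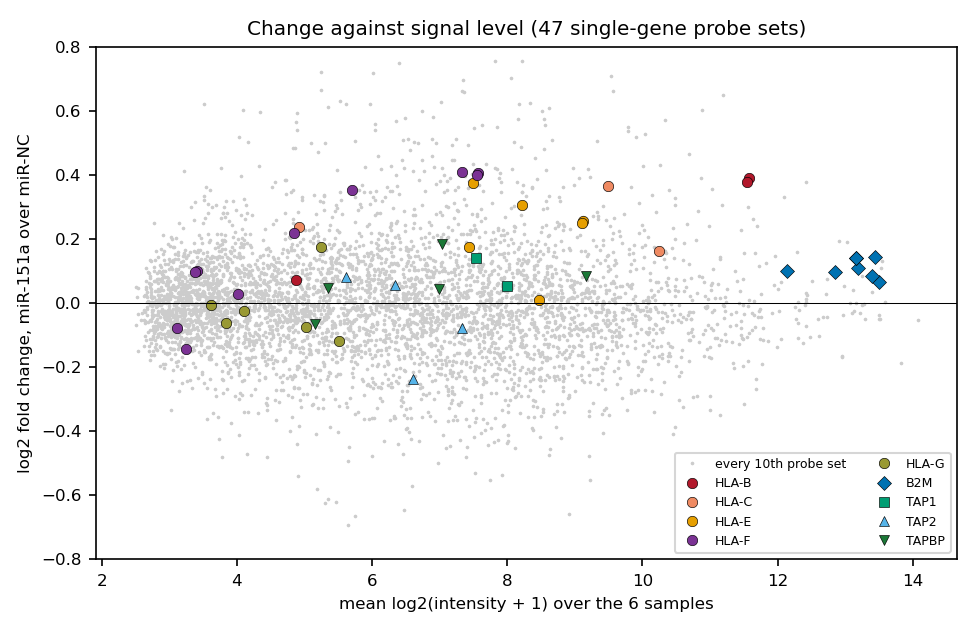
Log2 fold change against mean log2(intensity + 1) for the 47 member probe sets that name 1 gene, over every 10th probe set of the array in grey (the vertical axis is limited to ±0.8). Heavy chain probe sets (circles) of higher signal lie between 0.01 and 0.41, while the B2M probe sets (diamonds), at the bright end, lie between 0.07 and 0.14.

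HLA-B is a classical heavy chain. Its brightest probe set, 11755966_x_at, had intensities of 3454, 3446 and 3600.3 in the miR-151a samples, against 2679.7, 2649.9 and 2675 in the miR-NC samples. The lowest value with miR-151a lay well above the highest with miR-NC, and the rise was 31.1% (log2 fold change 0.39, standard error 0.05, 95% interval 0.28 to 0.50, adjusted p = 0.00184 in limma). The near-identical 11755933_x_at, whose value differed from the first by at most 2.94% in any sample, had 3397, 3374 and 3497 against 2669, 2587 and 2640.3 (log2 fold change 0.38, adjusted p = 0.00209 in limma). Both stayed past the threshold in all 12 alternative fits. The unique probe set of HLA-B, 11762851_at, was dim, at 29.2 ± 3.87 with miR-151a and 27.5 ± 2.02 with miR-NC (SD, n = 3 each), and its interval ran from -0.16 to 0.30. The probe set that names both HLA-B and HLA-C, 11759581_x_at, was dimmer still, with 18.5, 19.1 and 18.9 against 18.9, 22.3 and 17.8, and a log2 fold change of -0.05 (adjusted p = 0.723 in limma).

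HLA-C, the other classical heavy chain, was higher by a smaller and less certain amount. Its brightest probe set, 11760444_x_at, had 1284, 1296 and 1261 with miR-151a, against 1137, 1141 and 1157 with miR-NC. The groups did not overlap, yet the difference of 11.8% missed the threshold over probe sets (log2 fold change 0.16, adjusted p = 0.0535 in limma) and passed it over genes (adjusted p = 0.0386 in limma). That gene-level call was lost without any 1 of the 6 samples, with adjusted p from 0.0781 to 0.119, while the probe set itself passed in 4 of 12 alternative fits. The probe set that passed, 11762940_x_at, had 851, 763 and 822 against 699, 581 and 615, a rise of 28.8% (log2 fold change 0.36, adjusted p = 0.0195 in limma). In limma it lost the call without replicate 1 of miR-151a (adjusted p = 0.0685), replicate 3 of miR-151a (0.0613), replicate 2 of miR-NC (0.0612) or replicate 3 of miR-NC (0.063). The dim 11715316_x_at had 36.3, 26.7 and 33.5 against 25.5, 27.6 and 27.5, where 1 miR-151a sample lay among the controls (log2 fold change 0.24, adjusted p = 0.18 in limma, and 0.0203 without that sample, miR-151a replicate 2).

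HLA-E, a conserved heavy chain that presents leader peptides of other class I molecules to the NKG2A and NKG2C receptors, rose at 4 of its 6 probe sets. The brightest, 11723195_x_at, had 588, 615 and 614 with miR-151a, against 495, 517 and 509 with miR-NC. The groups were apart, and the rise was 19.4% (log2 fold change 0.26, standard error 0.05, adjusted p = 0.0123 in limma). The probe set 11751618_x_at, within 3.89% of it in every sample, gave 0.25 (adjusted p = 0.0132 in limma) and missed the threshold without miR-NC replicate 1 (0.0512). The dimmer 11753404_x_at and 11748332_x_at had log2 fold changes of 0.31 and 0.38. The remaining pair, both of the _s_at kind, did not pass. Of these, 11758879_s_at was at 352, 345 and 363 against 340.1, 356 and 356, with an interval from -0.10 to 0.12 that lies below the estimates of all 4 probe sets that rose. The last, 11744829_s_at, was at 0.17 (adjusted p = 0.14 in limma). Probe sets of HLA-E thus disagreed at similar signal levels.

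HLA-F, a heavy chain that can reach the cell surface without peptide, had the largest estimates among the members. Its brightest probe set, 11734530_x_at, had 213, 223 and 213 with miR-151a, against 167, 164 and 158 with miR-NC. No value overlapped, and the rise was 32.5% (log2 fold change 0.41, standard error 0.05, 95% interval 0.29 to 0.52, adjusted p = 0.00205 in limma). The variant probe set 11718230_a_at, the 1 passing member not of the _x_at kind, had 190.2, 193 and 171 against 152, 134 and 131, and also gave 0.41 (adjusted p = 0.00977 in limma). Also past the threshold were 11718231_x_at at 0.40 and the dim 11760144_x_at at 0.35. All 4 passed in all 12 alternative fits. The remaining 6 probe sets had intensities from 7.03 to 31.6 and did not pass. The brightest of these, 11760143_at, had groups that did not overlap and a log2 fold change of 0.22 (adjusted p = 0.0797 in limma). The others, 11762112_a_at, 11762089_a_at, 11762090_x_at, 11732355_x_at and 11732354_a_at, lay between -0.14 and 0.10, at or below the lower quartile of the arrays or close to it.

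HLA-G, an inhibitory heavy chain known from the placenta, was dim at all 6 probe sets, and none passed. Its intensities ran from 10.5 to 49.7, below every array's median. The brightest, 11753417_x_at, had 37.4, 46.1 and 44.9 with miR-151a, against 41.5, 49.7 and 48.4 with miR-NC (log2 fold change -0.12, adjusted p = 0.482 in limma). Values overlapped between groups at every HLA-G probe set. The highest estimate was 0.18 for 11753602_x_at (adjusted p = 0.231 in limma, and 0.0495 without miR-151a replicate 2). The other probe sets, 11760406_x_at, 11762259_x_at, 11753444_x_at and 11743185_x_at, lay between -0.08 and -0.01. Near the lower quartile the log2(intensity + 1) scale understates a change.

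**Figure D4:**
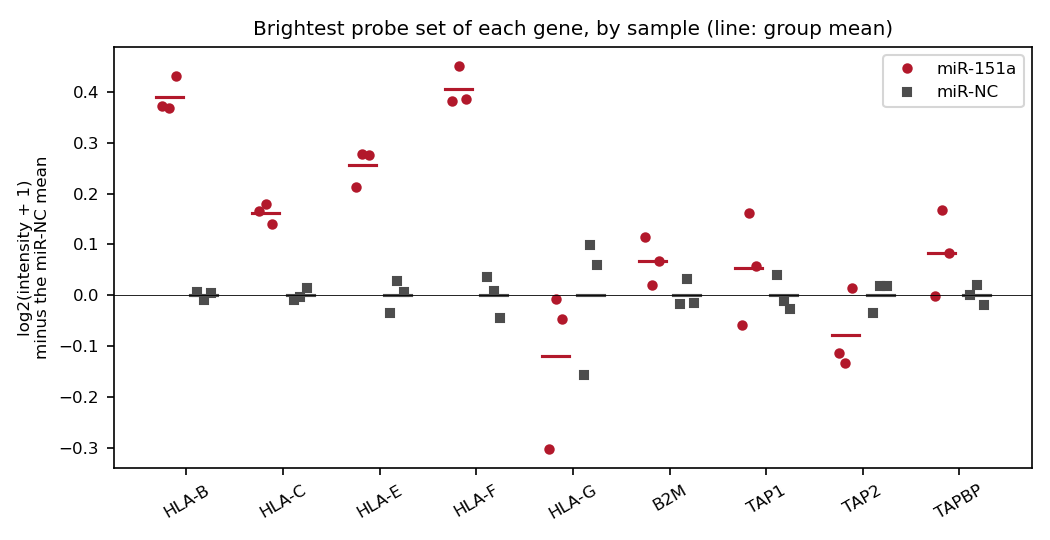
Log2(intensity + 1) of the brightest probe set of each of the 9 genes in each sample, relative to the miR-NC mean; circles are miR-151a, squares miR-NC, and lines group means (n = 3 each). The miR-151a samples of HLA-B, HLA-C, HLA-E and HLA-F all lie above the miR-NC samples, and those of the other 5 genes overlap them.

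B2M, the light chain shared by all class I heavy chains, was among the brightest transcripts and had no probe set past the threshold. Its brightest probe set, 11758300_x_at, had 12207, 11424 and 11816 with miR-151a, against 11139, 11527 and 11159 with miR-NC. The groups overlapped, and the log2 fold change was 0.07 (interval -0.05 to 0.18, adjusted p = 0.44 in limma). Only 67 of 49293 probe sets were brighter. All 8 B2M probe sets had a positive estimate, from 0.07 to 0.14. The values of 11758193_x_at did not overlap, at 11935, 11497 and 11632 against 10349, 10992 and 10429 (log2 fold change 0.14, adjusted p = 0.103 in limma). The pair 11758192_s_at and 11758148_s_at differed by at most 0.0542% in any sample, both at 0.14, and stands for 1 measurement. The rest, 11756150_at, 11758299_a_at, 11756151_x_at and 11758260_x_at, gave 0.08, 0.11, 0.10 and 0.10. In 11758260_x_at a single miR-151a sample stood high, with 5824, 4057 and 4258 against 4693, 4269 and 4085, and without it the estimate was -0.06. In the alternative fit with a variance trend, in which the expected spread may vary with signal level, 5 of the 8 B2M probe sets were called higher, and with a pseudocount of 32 1 was (11758193_x_at, adjusted p = 0.0191 in limma). None was called in the other 10 alternative fits. Whether signals so near the top of the range still rise in proportion to RNA was not tested.

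TAP1 and TAP2 form the transporter, and neither passed. For TAP1, 11757351_a_at had 241, 280.4 and 261 with miR-151a, against 257.5, 249 and 246 with miR-NC, so the groups overlapped (log2 fold change 0.05, 95% interval -0.10 to 0.20). The dimmer 11730729_a_at did not overlap, at 193, 187 and 205 against 179, 177 and 173 (log2 fold change 0.14, adjusted p = 0.131 in limma). For TAP2 the estimates had both signs. The brightest, 11723058_a_at, had 152, 150.4 and 167 against 161, 167 and 167 (log2 fold change -0.08, adjusted p = 0.427 in limma). The lowest estimate of all 48 was that of 11723059_a_at, with 81.9, 95.05 and 88.4 against 111, 101 and 101. Its values did not overlap, and it missed the threshold at a log2 fold change of -0.24 (adjusted p = 0.0606 in limma, and 0.0472 without miR-151a replicate 2), though it passed in 4 of 12 alternative fits. The remaining pair, 11745266_x_at and 11741632_a_at, were at 0.06 and 0.08.

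TAPBP, the tapasin gene, did not pass either. Its brightest probe set, 11757321_a_at, had 558, 627 and 592 with miR-151a, against 558, 566 and 551 with miR-NC (log2 fold change 0.08, 95% interval -0.05 to 0.21, adjusted p = 0.398 in limma). The highest estimate was 0.18 for 11756618_x_at, with 139, 126 and 154 against 121, 121 and 126 (adjusted p = 0.142 in limma). The lowest miR-151a value there lay just above the highest control. The remaining 11756617_a_at, 11751572_a_at and 11735502_a_at lay between -0.07 and 0.05, with overlapping groups.

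The change of HLA-B was set against that of each partner within the same array, as the difference of log2 values of the brightest probe sets. Relative to the miR-NC mean, HLA-B over B2M was at 0.26, 0.35 and 0.36 in the miR-151a samples, against 0.02, -0.04 and 0.02 in the miR-NC samples, a difference of 0.32. It was 0.34 for HLA-B over TAP1, 0.47 over TAP2 and 0.31 over TAPBP. In each case the 3 miR-151a values lay above the 3 miR-NC values. A 2-sided exact permutation test gave p = 0.1 for each of these and for the comparison with HLA-DRA below, which is the smallest value that 3 samples against 3 allow (adjusted over 5 pairs, p = 0.1). These 5 pairs were chosen after the values were seen.

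Other genes of peptide supply and assembly were read at the level of genes. Of 11 measured genes (12 listed), 0 rose and 1 fell, each represented by its brightest probe set, against 7.27% and 8.11% of 18132 genes (15.4% in either direction). Groups did not overlap for 3 that were higher (PSME1, PSME2 and ERAP1) and 4 that were lower (ERAP2, CALR, CANX and PDIA3), against 15.1% and 19.4% of all genes (34.5% in either direction). With the mean over probe sets, 3 rose and 1 fell. At the level of probe sets, 1 of 5 of ERAP1 and 1 of 2 of TAPBPL, another listed gene, rose. For CANX 1 of 9 fell, and of all probe sets 6.81% passed as higher and 7.27% as lower. With the brightest probe sets, the list's median log2 fold change was 0.04, against -0.01 over all genes. CALR, which encodes the chaperone calreticulin of the loading complex, had 311 ± 11.9 with miR-151a and 368 ± 12.8 with miR-NC (SD, n = 3 each), a change of -15.3% (adjusted p = 0.0184 in limma). This call was lost without replicate 1 or replicate 3 of either group (miR-151a first, adjusted p = 0.0552, 0.0639, 0.061 and 0.0694 in limma), and 1 of its 2 probe sets passed. PDIA3, the oxidoreductase of the same complex, was at -0.13 (adjusted p = 0.0922 in limma). PSME2, a proteasome activator subunit, and PSMB8, an immunoproteasome subunit whose gene lies between TAP2 and TAP1, were at 0.19 and 0.20 (adjusted p = 0.0603 and 0.108 in limma).

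Among regulators of class I transcription, 3 of 14 measured genes (15 listed) rose and none fell, against 7.27% and 8.11% of all genes, and their median was 0.08 on the log2 scale. IRF1, an interferon regulatory factor that binds the ISRE, had 425, 454 and 425 with miR-151a, against 186, 185 and 202 with miR-NC. Its rise was 2.27-fold (adjusted p = 1.79e-05 in limma), and all 4 of its probe sets rose. NFKB1, which encodes the p105 and p50 NF-kB subunit, had 770, 815 and 805 against 502, 488 and 481, a rise of 62.3% (adjusted p = 9.64e-05 in limma). This gene had 1 probe set. RELA, another NF-kB subunit gene of the list, was at 0.07 with overlapping groups (adjusted p = 0.43 in limma), and 0 of its 3 probe sets passed. IRF9, the DNA-binding part of the interferon-stimulated factor ISGF3, was called at 0.27 (adjusted p = 0.0468 in limma). This call was lost when miR-151a 2, miR-151a 3 or any miR-NC sample was left out (adjusted p from 0.0855 to 0.138 in limma). Of the 4 probe sets of IRF9, 3 rose. NLRC5, the class I transactivator, was at 0.15, with 175 ± 2.18 with miR-151a and 158 ± 3.92 with miR-NC (SD, n = 3 each; adjusted p = 0.057 in limma). RFXANK, a subunit of the RFX factor, was at 0.19 (adjusted p = 0.0619 in limma), and IRF2, an ISRE-binding antagonist of IRF1, at -0.22 (adjusted p = 0.0504 in limma). IRF2 was called lower in 5 of 13 alternative fits, with adjusted p from 0.00415 to 0.0449 in limma. In the same 13 fits RFXANK was called higher in 5 and NLRC5 in 4. Their lowest adjusted p values were 0.00335 and 0.0137 in limma.

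Related molecules were taken as 1 mixed list of class I-like, NKG2D ligand and class II genes. Of its 13 measured genes, 6 fell and 1 rose, against 8.11% and 7.27% of all genes, and the list's median was -0.15 on the log2 scale. The class II chain HLA-DRA had 904, 902 and 885 with miR-151a, against 1175, 1142 and 1181 with miR-NC, a log2 fold change of -0.38 (adjusted p = 0.00136 in limma). The class II peptide exchange factor HLA-DMA and the class II chain HLA-DPA1 fell as well, with log2 fold changes of -0.33 and -0.30, and 2 of 3 probe sets of HLA-DRA, 2 of 2 of HLA-DMA and 4 of 4 of HLA-DPA1 fell. CD74, the invariant chain, was at -0.15 (adjusted p = 0.126 in limma) and the class II transactivator CIITA at -0.02. At the level of probe sets, 1 of 5 of CD74 fell, and 0 of 4 of CIITA passed. Within arrays, HLA-B over HLA-DRA was higher with miR-151a by 0.77. HFE, a class I-like protein of iron balance that binds B2M, fell by 0.22 on the log2 scale (adjusted p = 0.0107 in limma), and 2 of its 9 probe sets fell.

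Ligands of the NKG2D receptor, stress-induced relatives of class I, moved in different directions. ULBP1 had 79.7, 75.5 and 78.4 with miR-151a, against 28.4, 30.3 and 37.7 with miR-NC. This was a 2.40-fold rise (adjusted p = 0.000232 in limma), with all 3 of its probe sets higher, at a signal near the array median. ULBP2 and ULBP3 had log2 fold changes of -0.18 and -0.44 (adjusted p = 0.0368 and 0.0297 in limma), and 1 of 3 probe sets of each fell. The call of ULBP2 was lost without any 1 of the 6 samples (adjusted p from 0.0612 to 0.127), and that of ULBP3 when miR-151a 1, miR-151a 2, miR-NC 1 or miR-NC 3 was left out (0.0787 to 0.0895). MICA and MICB were at -0.01 and -0.01, with overlapping groups, at their brightest probe sets. At the level of probe sets, 0 of 3 of MICA passed, and 1 of 4 of MICB fell.

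**Figure D5:**
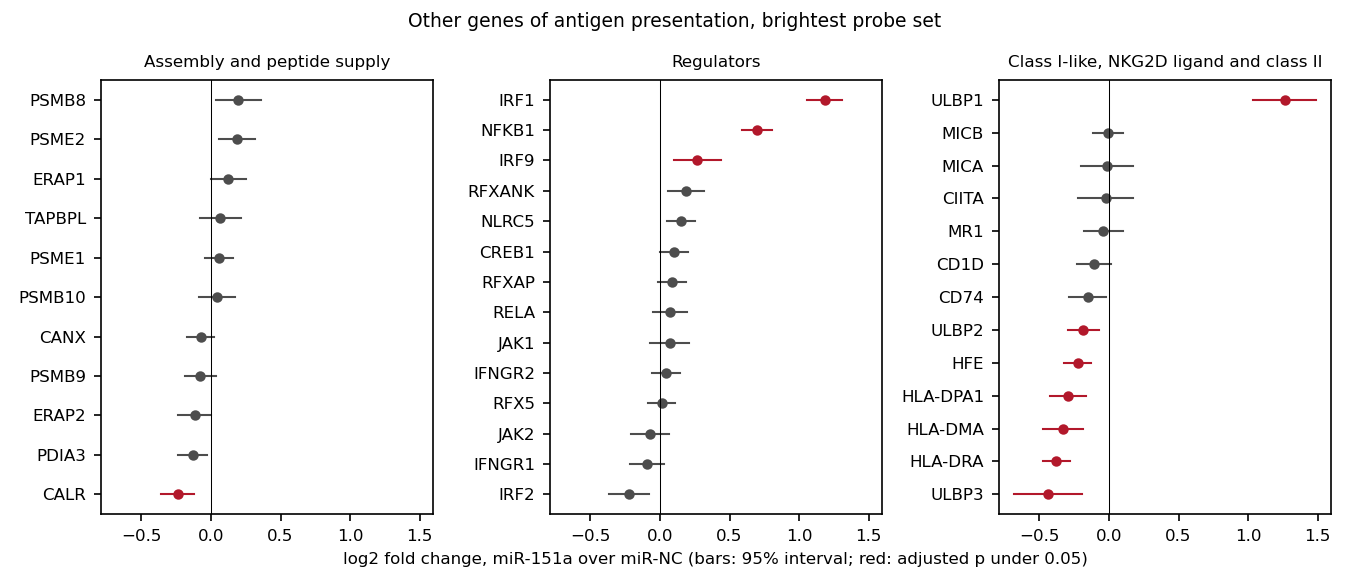
Log2 fold change (miR-151a over miR-NC, n = 3 each) with 95% interval for the brightest probe set of the measured genes in 3 lists; red marks an adjusted p under 0.05 over all genes. IRF1, NFKB1 and ULBP1 stand at 1.18, 0.70 and 1.26, and the class II genes HLA-DRA, HLA-DMA and HLA-DPA1 between -0.38 and -0.30.

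Immune cells carry much class I and II, so their markers were read beside these values. Of 9 measured immune cell markers, 0 passed at the level of genes, and their summed intensity ran from 1250.1 to 1302 with miR-151a and from 1208 to 1257 with miR-NC, most of it from CD68, a lysosomal gene. At the level of probe sets, 2 of 3 rose for ITGAM, an integrin chain of myeloid cells. Its probe set 11732480_s_at had 18.5, 16.0 and 18.8 with miR-151a, against 5.13, 5.62 and 6.60 with miR-NC, a 2.77-fold rise (log2 fold change 1.47, adjusted p = 6.9e-05 in limma). This was larger than the change of any member, at a signal near or below the arrays' lower quartile. The brightest, 11732481_a_at, was at 22.7 ± 4.02 with miR-151a and 16.6 ± 1.21 with miR-NC (SD, n = 3 each) and missed the threshold over genes (adjusted p = 0.0576 in limma). None of 3 endothelial markers passed (summed intensity 102 to 110.05 with miR-151a, 109 to 118 with miR-NC). Of 8 glial and mesenchymal markers, NES fell at the level of genes by 0.31 on the log2 scale (adjusted p = 0.00791 in limma). NES is an intermediate filament gene of neural progenitors. The other 7 did not pass at that level. Among probe sets, 2 of 2 of NES and 1 of 10 of CD44 fell, and 1 of 8 of EGFR rose. Of all probe sets 6.81% passed as higher and 7.27% as lower. The part of these markers in the results was not tested.

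The genes most alike in their values over the 6 samples were found by Pearson correlation among 9065 genes above the median level, for the 3 members with the smallest p. For HLA-B these were GULP1 and PINLYP (r = 0.9995 and 0.9994), for HLA-F MAFF and UBE2J2 (0.9996 and 0.999), and for HLA-E ZNF330 and TPRA1 (0.998 and 0.998). With 2 groups of 3 samples, such values mostly reflect the shared difference between groups.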

How the data were processed

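Values were the deposited linear probe set intensities, 1 column per sample; MAS5 is named, without version or role, per the submitters' processing notes, and the remaining steps were not stated there. Groups and replicate numbers came from the sample titles. From 49395 probe sets, 102 control probe sets were left out; 44988 named 1 gene, 1832 several and 2473 none in the platform annotation. Of the first, 44961 were matched to RefSeq by Entrez number for a current symbol. For a value per gene (18132 genes), the brightest probe set on average stood for it. Values were compared as log2(intensity + 1) with limma 3.58.1 in R 4.3.3 (lmFit, eBayes, no covariate), adjusted by Benjamini-Hochberg over all probe sets or all genes, with a threshold of 0.05; the fit was tested on simulated data. The number of arrays limits the precision. Named genes were the members, every passing gene and up to 3 others of each list by smallest p, and the genes most correlated with up to 3 members. MICA, MICB, CIITA, PSME1, ERAP1, ERAP2, CANX, TAPBPL, RELA and the cell type markers were named in addition, after their values were seen. Members and lists were chosen with earlier results of these data known. Promoters came from RefSeq on GRCh38.p14. A few list entries were not analysed here. The fit was repeated with each sample left out, a replicate block, a robust variance trend, quantile normalization, a pseudocount of 32, median-centred arrays, an average across probe sets per gene, and without probe sets below the 0.25 quantile of level. Figures were drawn with matplotlib 3.10.9.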

Additional observations from a re-analysis of the deposited data

How the results depend on the processing

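The count of 11 member probe sets past the threshold was 11 with median centring and when restricted to probe sets that name 1 gene. It was 12 with quantile normalization, 15 with a pseudocount of 32 (14 higher, 1 lower) and 13 without low values (12 higher, 1 lower). With a variance trend and robust fit it was 19 (18 higher, 1 lower), and without 1 sample 10 to 14. With the replicate number as a block it was 11. Calls over all probe sets moved as well, from 14.1% to 14.4% with median centring and 15% with quantile normalization. They were 20% with a pseudocount of 32, 22.6% without low values and 21.6% with the trend. With the replicate block they were 8.88%, and without 1 sample 8.28% to 9.75%. Same-numbered samples of the 2 groups had deviations correlated at 0.03, -0.17 and 0.18, so the numbers were not taken to pair them, and miR-151a 1 and miR-151a 2 correlated best with a sample of another number. With the block, the gene-level calls of HLA-C (adjusted p = 0.102 in limma), CALR (0.0692), IRF9 (0.111) and ULBP2 (0.0843) were lost; with median centring those of HLA-C (0.0557) and IRF9 (0.0521), and with the mean over probe sets those of CALR (0.0547), ULBP2 (0.39) and HFE (0.0748). For the assembly list the count of 1 (lower) became 2 with quantile normalization (1 higher, 1 lower), 3 with a pseudocount of 32 (1 higher, 2 lower), 2 without low values (1 higher, 1 lower), 5 with the variance trend (2 higher, 3 lower), 0 with the replicate block, 4 with the mean over probe sets (3 higher, 1 lower) and 0 to 1 without 1 sample. For the regulator list the count of 3 became 5, 7, 6, 6 and 5 with quantile normalization, a pseudocount of 32, removal of low values, the variance trend and the mean over probe sets, 1 of them lower in each but the first. It was 3 with median centring (2 higher, 1 lower), 2 with the replicate block, and 2 to 3 without 1 sample. The class I-like list had 5 to 8 calls, not always of the same genes: ULBP2, ULBP3 or HFE were lost in some fits, and CD74 was gained with the variance trend (adjusted p = 0.03 in limma). The causes were not tested.

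No member probe set past the threshold changed sign in any alternative. Of those not past it, 11758879_s_at of HLA-E was at -0.00274 with median centring and -0.012 to 0.026 without 1 sample. MR1, a gene of the class I-like list and not a member, was at -0.04 at its brightest probe set (adjusted p = 0.724 in limma). With the mean over probe sets MR1 was at 0.0895. Without 1 sample, log2 fold changes ran from -0.12 to 0.036 for 11759581_x_at of HLA-B and HLA-C, from -0.0067 to 0.078 for 11762112_a_at of HLA-F, from -0.10 to 0.047 for 11762259_x_at of HLA-G, from -0.14 to 0.0043 for 11753444_x_at of HLA-G, from -0.065 to 0.052 for 11743185_x_at of HLA-G, from -0.063 to 0.20 for 11758260_x_at of B2M, from -0.00044 to 0.11 for 11757351_a_at of TAP1, from -0.00502 to 0.16 for 11741632_a_at of TAP2, from -0.028 to 0.091 for 11756617_a_at of TAPBP, from -0.0087 to 0.16 for 11751572_a_at of TAPBP, from -0.14 to 0.011 for 11735502_a_at of TAPBP. Intensities give no read depth, and signal near the lower quartile limits what can be read for HLA-G and the dim HLA-F probe sets.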
